A study of Homo sapiens with 12 samples.

Results

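Collagen, integrin and laminin genes were described in maps of H3K27ac, a histone acetylation found at active promoters and enhancers, in human pancreatic ductal adenocarcinoma lines. The 80 genes were chosen by symbol alone from 19974 RefSeq protein-coding genes on chromosomes 1 to 22 and X: 44 genes for collagen α chains, 25 for integrin chains and 11 for laminin chains. 1 further laminin β-chain gene was left out by that rule. H3K27ac was immunoprecipitated with 1 antibody for 12 libraries in 6 groups of 2: MiaPaCa2 cells kept for 2 h in the cytokine IFN-β (interferon beta) at 1000 U/ml, untreated MiaPaCa2 cells, CFPAC1 cells given IFN-β at the same dose and time, untreated CFPAC1 cells, CFPAC1 clones with an IRF1 knockout, and CFPAC1 wild-type (WT) clones. CFPAC1 is usually described as a low-grade line and MiaPaCa2 as a high-grade one. CFPAC1 was grown in IMDM and MiaPaCa2 in DMEM, so line and medium cannot be told apart. All clones carry the lentiviral vector named lentiCRIPSv2 in the labels and were grown out by dilution. The vector of the knockout clones expresses Cas9 and a guide RNA to IRF1, which encodes a DNA-binding factor that interferons induce. The WT clones carry the empty vector, and no cytokine is named for any clone. Each clone library is 1 clone, and whether the bulk libraries of a group came from separate cultures is not stated. The p-values therefore measure the spread between these libraries. H3K27ac at IRF1 does not check a CRISPR knockout.

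Collagens are triple-helical matrix proteins. Fibrillar collagens build the fibres of the stroma, while type IV collagens form the sheet of the basement membrane together with laminins, trimers of an α, a β and a γ chain. Integrins are α/β heterodimers at the cell surface through which cells hold on to both. Pancreatic ductal adenocarcinoma is known for a dense collagen-rich stroma, most of which is laid down by fibroblasts, while the carcinoma cells sit on laminin and collagen through their integrins.

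The peak lists held 59896 to 109861 peaks that covered 63.6 to 94.8 Mb, with the most peaks in IRF1 knockout clone 2 and the fewest in IFN-β-treated MiaPaCa2 library 1, and read depth is unknown. The epithelial markers EPCAM, CDH1, KLF5, GRHL2 and ESRP1 had no peak in any MiaPaCa2 library, while all 11 epithelial markers on the list were covered in both libraries of every CFPAC1 group. Of the same list, KRT8, KRT18, KRT19, CLDN4 and ELF3 had peaks in every MiaPaCa2 library and KRT7 in some. Of the mesenchymal markers, VIM, ZEB1 and SNAI2 had peaks in all 12 libraries. ZEB2, CDH2 and FN1 had none in MiaPaCa2, and TWIST1 had peaks in some MiaPaCa2 libraries only. SOX9, a duct marker, was covered in all 12 libraries. The leukocyte marker PTPRC and the fibroblast marker DCN had no peak in any library.

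The measure is the covered length of a gene, the number of bp under peaks in the 10000-bp window that reaches 5 kb either side of 1 gene end. The window is the same for all genes. A value of 0 means that no peak was listed, not that acetylation was absent, and fewer cells with a mark cannot be told apart from a weaker mark in each cell. The gene end with the larger mean over the 12 libraries was used without regard to group. For 42 members that end was the start in the RefSeq promoter table, for 14 it was the 3′ end, and for 24 that table gives no strand. Differences are on the log2 scale after 500 bp was added to each covered length, centred per library, and come with their SE from a limma fit over 15513 genes covered in at least 2 libraries. A gene passed at a Benjamini-Hochberg adjusted p under 0.05 over all of these genes. Of the members, 67 were tested: 35 collagen, 22 integrin and 10 laminin genes.

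No peak lay in the window of 8 members in any library, 10.0% of members against 19.2% of all genes: the collagen genes COL5A3, COL6A5, COL6A6, COL9A1, COL10A1 and COL15A1, the integrin gene ITGA8 and the laminin gene LAMA1. Another 5, COL21A1, COL24A1, COL28A1, ITGA9 and ITGAD, were covered in 1 library each and were not tested. In all 12 libraries, 28 members were covered, which is 35.0% of members against 55.9% of all genes.

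**Figure D1:**
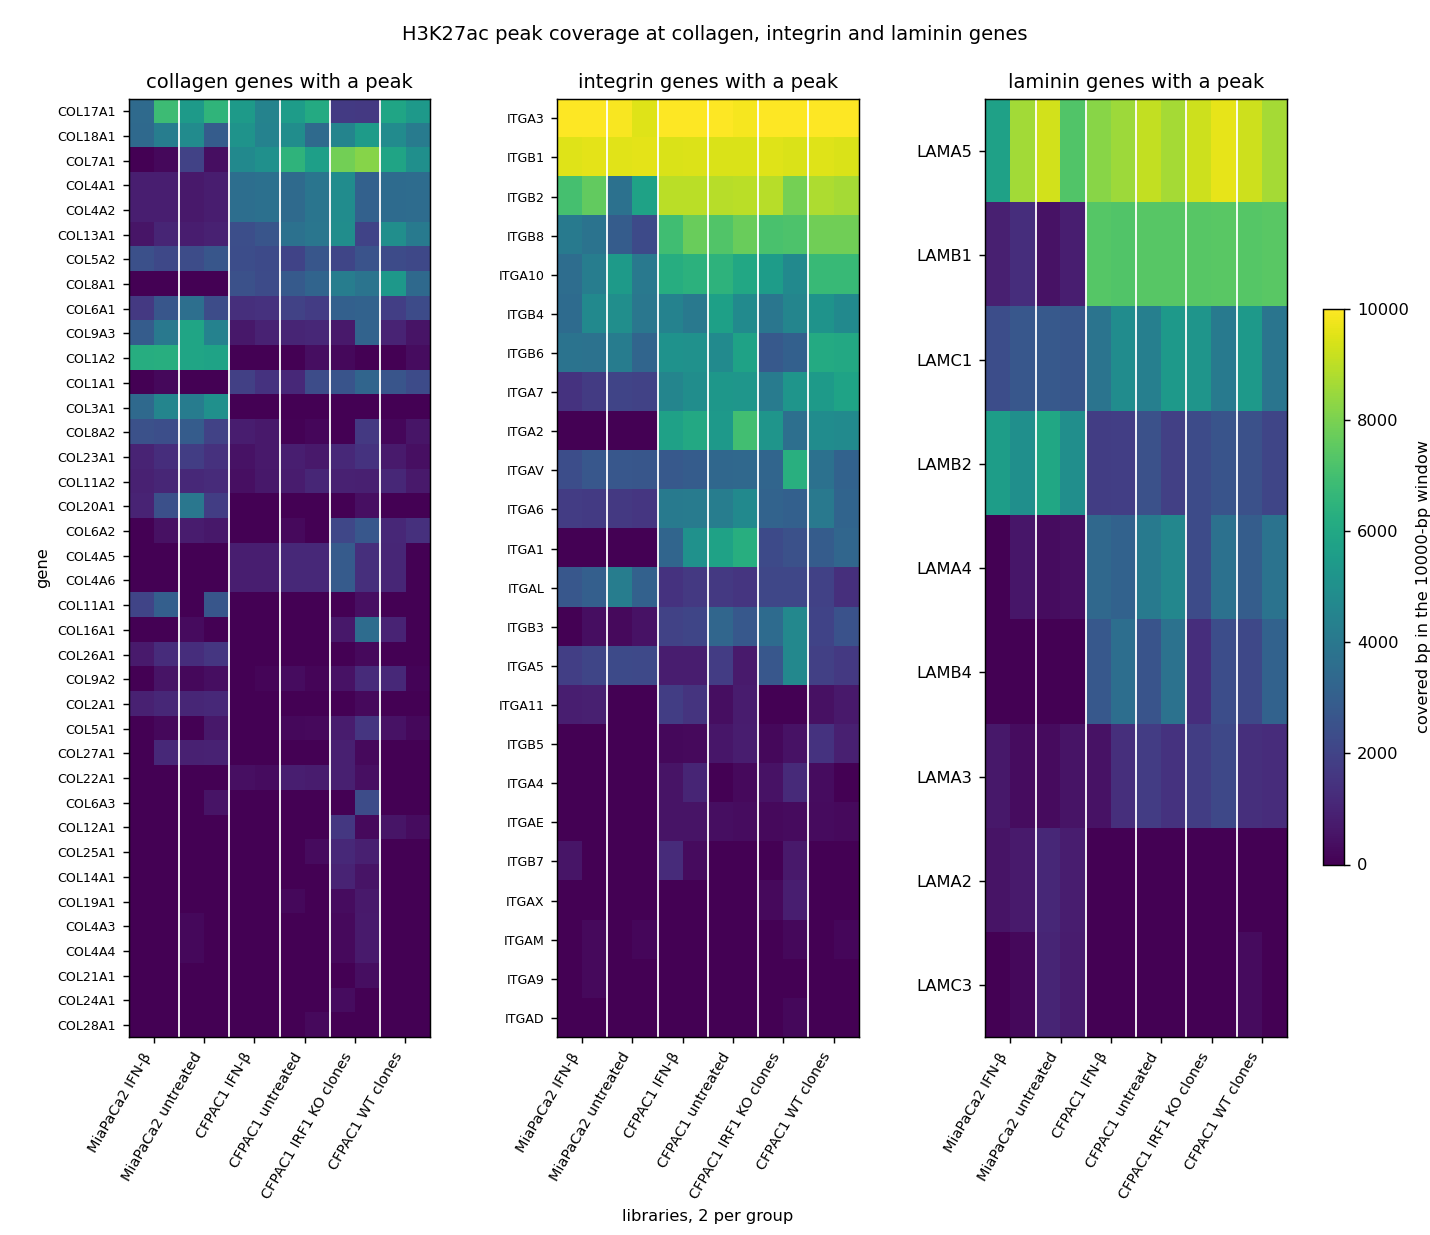
Covered bp (colour scale, 0 to 10000) in every library (columns, 2 per group) for members covered in at least 1 library (rows, ordered by their mean over the 12 libraries within collagen, integrin and laminin genes). Rows such as COL1A2, COL3A1, ITGA2 and LAMB1 change at the border between the 4 MiaPaCa2 and the 8 CFPAC1 libraries, while ITGA3 and ITGB1 are near the ceiling throughout.

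The longest coverage belonged to receptor chains. ITGA3, the α chain of the laminin receptor α3β1 (chr17:50056110-50090481, GRCh38), was covered over 9514 to 10000 bp in all 12 libraries, at the ceiling of the measure, and 1 peak there reached 23085 bp. ITGB1, the β chain shared by most matrix receptors, was covered over 9528, 9575, 9542 and 9585 bp in MiaPaCa2 and over 9418 to 9512 bp in CFPAC1. Its strongest peak had a fold enrichment, the authors' own value, at the 96.8th percentile or higher of each list. Among laminin genes LAMA5, whose α5 chain is widespread in epithelial basement membranes, led with 5715 to 9625 bp. COL17A1 led the collagen genes by its mean over the 12 libraries and is described with the IRF1 knockout. ITGB2, whose chain pairs with leukocyte α chains, was covered over 3744 to 7601 bp in MiaPaCa2 and over 7914 to 8969 bp in CFPAC1, in libraries with no peak at PTPRC.

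Between the lines, more members were lower than higher in MiaPaCa2. Untreated MiaPaCa2 was compared with untreated CFPAC1, and IFN-β-treated MiaPaCa2 with IFN-β-treated CFPAC1. The 2 comparisons share no library. Members with peaks in a single line, such as COL3A1, LAMA2, ITGA1 and ITGA2, entered the test only through that line. In untreated cells 16 members were higher and 26 lower in MiaPaCa2, in all 42 of 67 (62.7%) against 48.9% of all genes tested. For all genes 29.0% were higher and 19.9% lower. Peaks in both libraries of untreated MiaPaCa2 and neither of untreated CFPAC1 were listed at 7 members (10.4%, against 4.14% of all genes), and the reverse at 12 (17.9%, against 9.67%). In IFN-β-treated cells 13 were higher and 25 lower, 38 of 67 (56.7%) against 42.5% of all genes, of which 24.6% were higher and 17.9% lower. Peaks in both treated MiaPaCa2 libraries and neither treated CFPAC1 library were listed at 7 members (10.4%, against 4.78%), and the reverse at 11 (16.4%, against 9.09%). In both comparisons 11 members were higher, 16.4% of members against 20.2% of all genes, and 23 were lower, 34.3% against 15.4%. None was called with opposite signs. All 4 MiaPaCa2 libraries lay below all 8 CFPAC1 libraries at 21 members (31.3%, against 17.2% of all genes) and above them at 10 (14.9%, against 18.2%). The median log2 difference of members was -0.04 in untreated and -0.01 in IFN-β-treated cells, against 0.14 and 0.10 for all genes.

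**Figure D2:**
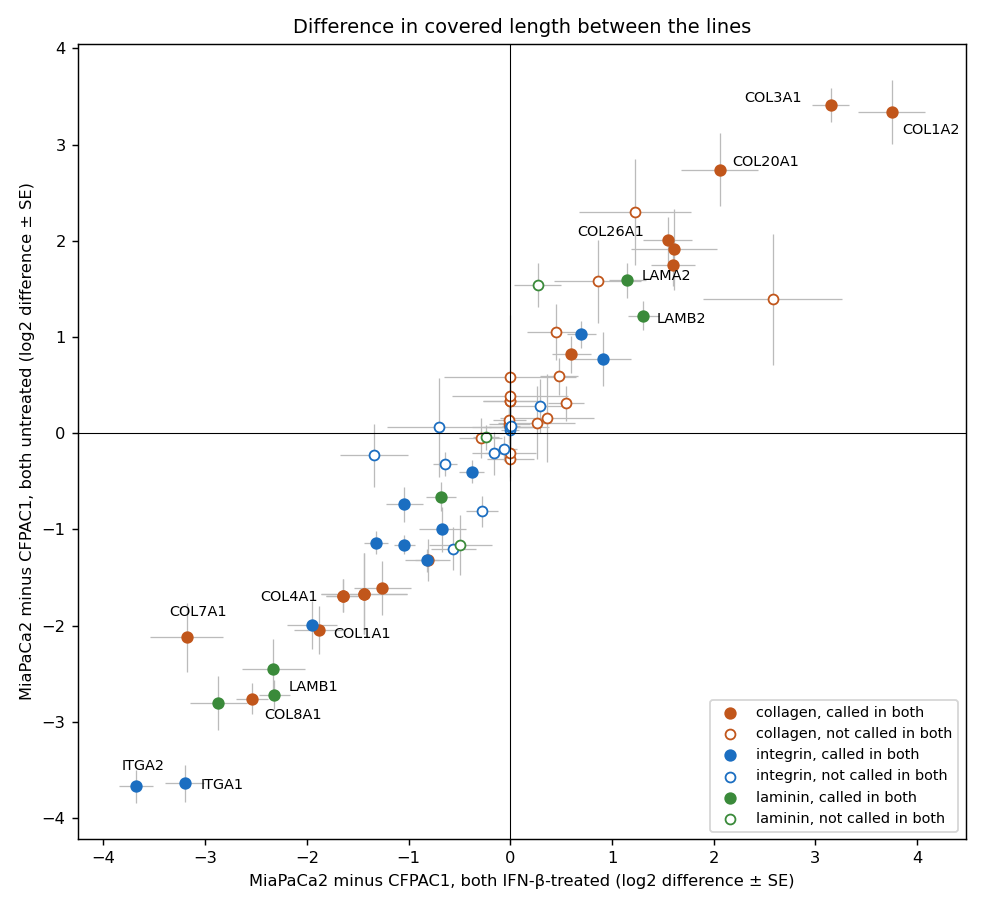
Log2 difference in covered length between MiaPaCa2 and CFPAC1 (± SE) in IFN-β-treated cells (x axis) and in untreated cells (y axis) for members tested, coloured by family. Filled points passed in both comparisons and lie at the upper right, such as COL3A1, or at the lower left, such as ITGA2, and no filled point has opposite signs.

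Fibrillar collagens rose at 4 of 9 tested members and fell at 1 in untreated MiaPaCa2, where 29.0% of all genes were higher and 19.9% lower. COL1A2, the α2 chain of type I collagen (chr7:94394895-94431227), had 6244 and 6250 bp in IFN-β-treated MiaPaCa2 against 0 and 0 bp in IFN-β-treated CFPAC1, and 5875 and 5808 bp in untreated MiaPaCa2 against 0 and 354 bp in untreated CFPAC1. No MiaPaCa2 library came near a CFPAC1 library, and the log2 difference was 3.75 ± 0.33 with IFN-β (adjusted p = 1.37e-05) and 3.34 ± 0.33 without (adjusted p = 2.81e-05). COL3A1, the single chain of type III collagen (chr2:188974373-189012746), had 3413 and 4548 bp in IFN-β-treated and 4182 and 5032 bp in untreated MiaPaCa2, and no peak in any of the 8 CFPAC1 libraries. Its log2 difference was 3.41 ± 0.18 in untreated cells (adjusted p = 3.79e-07). COL3A1 entered the test only through MiaPaCa2, the line where it is high. COL1A1, whose α1 chain joins the COL1A2 chain in type I collagen, went the other way. It had 0 and 200 bp in IFN-β-treated MiaPaCa2 against 1888 and 1480 bp in IFN-β-treated CFPAC1, and 0 and 0 bp in untreated MiaPaCa2 against 1146 and 2318 bp in untreated CFPAC1. The groups did not overlap, and the log2 difference in untreated cells was -2.05 ± 0.25 (adjusted p = 0.000119). COL2A1, the chain of cartilage collagen, was higher in MiaPaCa2 in both comparisons (923 and 1119 bp with IFN-β, 1076 and 1152 bp without, against 0 bp in all 4 bulk CFPAC1 libraries). COL27A1 passed in untreated cells and COL11A1 and COL11A2 in IFN-β-treated cells, each higher in MiaPaCa2. The COL11A1 and COL11A2 windows lie at 3′ ends. COL11A2 passed in 6 of 17 alternatives. The COL11A1 difference was 0.01 with a 2 kb window (adjusted p = 0.973), and its call was lost without IFN-β-treated MiaPaCa2 library 2 or either IFN-β-treated CFPAC1 library. COL27A1 lost the call without untreated MiaPaCa2 library 2 or either untreated CFPAC1 library. COL5A2, whose window also holds the start of WDR75, had 2173 to 2663 bp in MiaPaCa2 and 2000 to 2686 bp in CFPAC1 and did not pass. COL5A1 had at most 632 bp in MiaPaCa2 and at most 1539 bp in CFPAC1 and did not pass.

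Basement membrane collagens fell at 4 of 6 members, which are 2 shared windows, and rose at none in both comparisons, where 19.9 and 17.9% of all genes were lower. COL4A1 and COL4A2, which encode the 2 chains of the common type IV network, start 127 bp apart on opposite strands and share 1 window (chr13, starts at 110307157 and 110307284). They had 822 and 858 bp in IFN-β-treated MiaPaCa2 against 3607 and 3710 bp in IFN-β-treated CFPAC1, and 679 and 801 bp in untreated MiaPaCa2 against 3459 and 3906 bp in untreated CFPAC1. The lines were far apart, with a log2 difference of -1.69 ± 0.17 in untreated cells (adjusted p = 3.45e-05). COL4A5 and COL4A6, a second head-to-head pair 380 bp apart, had no peak in MiaPaCa2 and 840 to 1162 bp in the bulk CFPAC1 libraries. With IFN-β this pair lost the call without any 1 of the 4 libraries. The COL4A3 and COL4A4 pair, which builds the network of the kidney filter, had at most 226 bp in MiaPaCa2 and no peak in bulk CFPAC1.

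Other collagens moved in both directions. COL8A1, a short-chain network collagen, had no peak in MiaPaCa2 and 2301 to 5331 bp in the 8 CFPAC1 libraries, with a log2 difference of -2.76 ± 0.16 in untreated cells (adjusted p = 8.42e-07). COL8A2, its partner chain, was higher in untreated MiaPaCa2 (2900 and 1976 bp, against 73 and 162 bp in untreated CFPAC1), in a window at its 3′ end 1307 bp from ADPRS, and lost the call at its start and with a 2 kb window. COL7A1, the anchoring fibril collagen that ties basement membrane to stroma, had 0 and 210 bp in IFN-β-treated MiaPaCa2 against 4728 and 5027 bp in IFN-β-treated CFPAC1, and 1955 and 360 bp in untreated MiaPaCa2 against 6519 and 5641 bp in untreated CFPAC1. That window lies at the 3′ end and holds the start of UCN2. At the COL7A1 start itself the log2 difference was -1.35 ± 0.26 with IFN-β (adjusted p = 0.00231) and -1.62 ± 0.26 without (adjusted p = 0.00071), also lower in MiaPaCa2. The transmembrane collagen COL13A1 and the fibril-associated COL22A1 fell in both comparisons. The fibril-associated COL9A3 and COL20A1, the transmembrane COL23A1 and COL26A1 rose in both, although the COL9A3 and COL20A1 windows are shared with OGFR and ARFGAP1 and that of COL23A1, at its 3′ end, with PHYKPL. At COL23A1 the direction turned when only peaks with a summit in the window counted (-0.10 untreated, -0.78 with IFN-β). With IFN-β COL23A1 passed in 6 of 16 alternatives and COL9A3 in 11 of 17. COL6A1 and COL6A2, chains of beaded filaments, were higher in MiaPaCa2 in untreated cells (0.59 ± 0.19, adjusted p = 0.0312, and 1.05 ± 0.29, adjusted p = 0.0138) and did not pass with IFN-β. COL6A1 passed in 9 of 17 alternatives, and COL6A2 lost the call without untreated CFPAC1 library 2 or untreated MiaPaCa2 library 1. COL18A1, whose fragment is endostatin, had 2916 to 4827 bp in MiaPaCa2 and 3439 to 5498 bp in CFPAC1 and did not pass. The sparsely covered COL6A3, COL9A2, COL12A1 and COL16A1 reached at most 537 bp in MiaPaCa2 and 3545 bp in CFPAC1, the highest values in clones, and none passed.

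Among receptors of collagen, all 4 α chains were lower in IFN-β-treated MiaPaCa2 and 3 of 4 in untreated MiaPaCa2, where 17.9 and 19.9% of all genes were lower. ITGA2, the α chain of the collagen receptor α2β1 (chr5:52989352-53094779), had no peak in any MiaPaCa2 library. It had 5737 and 6033 bp in IFN-β-treated CFPAC1, 5359 and 6992 bp in untreated CFPAC1 and 3656 to 5222 bp in the clones. The log2 difference was -3.68 ± 0.17 with IFN-β (adjusted p = 1.54e-07) and -3.67 ± 0.17 without (adjusted p = 1.41e-07). ITGA1, of the collagen receptor α1β1, likewise had no peak in MiaPaCa2 against 3279 and 5071 bp in IFN-β-treated and 5750 and 6261 bp in untreated CFPAC1, in a window that also holds the start of PELO. ITGA10 passed with IFN-β (3566 and 4254 bp in MiaPaCa2 against 6228 and 6441 bp in CFPAC1) at its 3′ end. At its start the direction was the opposite, with a log2 difference of 1.11 (adjusted p = 0.00181). ITGA11 had a log2 difference of -0.67 ± 0.23 with IFN-β (adjusted p = 0.0423), which passed in 4 of 16 alternatives, and of -1.0 ± 0.23 without (adjusted p = 0.0061), which passed in 11 of 16. At its start the differences were -0.03 and -0.27 and neither passed.

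Of 3 laminin receptor α chains, 2 were lower in MiaPaCa2 in both comparisons, as were 15.4% of all genes tested. The third, ITGA3, did not pass. It lay at or near the ceiling of the measure in every library, so a difference could hardly show there. ITGA6, whose α6 chain binds laminin with β1 or β4, had 1793 and 1710 bp in IFN-β-treated MiaPaCa2 against 4091 and 4166 bp in IFN-β-treated CFPAC1, and 1675 and 1581 bp in untreated MiaPaCa2 against 4225 and 4728 bp in untreated CFPAC1. The lines did not overlap, and the log2 difference in untreated cells was -1.16 ± 0.1 (adjusted p = 1.4e-05). With a 2 kb window it was -0.18 (adjusted p = 0.21), and -0.19 with IFN-β (adjusted p = 0.197). ITGB4, its hemidesmosome partner, had 3484 to 4926 bp in MiaPaCa2 and 3912 to 5681 bp in CFPAC1 and did not pass (-0.16 ± 0.13 in untreated cells, adjusted p = 0.346). ITGA7 fell in both comparisons in a window with the starts of BLOC1S1 and RDH5. Of 8 β chains, 5 fell in untreated and 3 in IFN-β-treated MiaPaCa2 and none rose, where 19.9 and 17.9% of all genes were lower. ITGB8, whose product activates TGF-β with αv, had 4092 and 3790 bp in IFN-β-treated MiaPaCa2 against 6931 and 7708 bp in IFN-β-treated CFPAC1, and 2921 and 2259 bp in untreated MiaPaCa2 against 7274 and 7703 bp in untreated CFPAC1 (-1.32 ± 0.12 untreated, adjusted p = 1.75e-05). ITGB3, which forms the vitronectin receptor with αv, and ITGB6, which forms the epithelial αvβ6, fell in both, and ITGB2 and ITGB5 in untreated cells. ITGB2 lost the call with a 2 kb window (-0.28, adjusted p = 0.159) and ITGB5 with a stricter q or equal peak numbers. For ITGB6 the positions of peaks differed. With only peaks whose summit lay in the window the untreated log2 difference was 0.07 (adjusted p = 0.759), and the calls held in 11 of 17 alternatives untreated and 12 of 17 with IFN-β. ITGAV itself did not pass (2345 to 2727 bp in MiaPaCa2, 2778 to 6293 bp in CFPAC1). ITGA5, the fibronectin receptor α chain, rose in both comparisons, with 1836 and 2090 bp in IFN-β-treated MiaPaCa2 against 803 and 805 bp in IFN-β-treated CFPAC1 (0.91 ± 0.28, adjusted p = 0.0265), a call lost without any 1 of these 4 libraries. In untreated cells it had 2250 and 2223 bp in MiaPaCa2 against 1780 and 730 bp in CFPAC1 (0.77 ± 0.28, adjusted p = 0.0474), which passed in 2 of 17 alternatives. The leukocyte α chain ITGAL rose in both, in a window with the start of ZNF768, and ITGAE, whose chain binds E-cadherin, fell at its 3′ end, with no peak in MiaPaCa2 against 250 to 537 bp in CFPAC1. ITGAM, of the leukocyte receptor αMβ2, had at most 252 bp in 4 libraries. At the ITGAE start neither difference passed (0.22 and 0.68).

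Laminin genes differed in both directions: LAMB1, LAMB4, LAMC1 and LAMA4 were lower in MiaPaCa2 in both comparisons, and LAMB2 and LAMA2 higher. LAMB1, the β1 chain of common laminins (chr7:107923799-108003161), had 862 and 1303 bp in IFN-β-treated MiaPaCa2 against 7379 and 7267 bp in IFN-β-treated CFPAC1, and 485 and 855 bp in untreated MiaPaCa2 against 7405 and 7415 bp in untreated CFPAC1. The 8 CFPAC1 libraries lay within 7267 to 7439 bp, and the log2 difference in untreated cells was -2.72 ± 0.15 (adjusted p = 5.65e-07). With only peaks whose summit lay in the window the difference did not pass, at -0.72 untreated (adjusted p = 0.559) and -2.32 with IFN-β (adjusted p = 0.0772). LAMB2, the β2 chain (chr3:49121114-49133050), went the other way, with 5561 and 4988 bp in IFN-β-treated MiaPaCa2 against 1800 and 1840 bp in IFN-β-treated CFPAC1, and 5960 and 4955 bp in untreated MiaPaCa2 against 2476 and 1885 bp in untreated CFPAC1. Its log2 difference was 1.31 ± 0.15 with IFN-β (adjusted p = 7.82e-05). LAMC1, the common γ1 chain, fell in both comparisons, with 2363 to 2808 bp in MiaPaCa2 and 3839 to 5395 bp in CFPAC1. LAMA4 and LAMB4 fell in both as well, LAMB4 at its 3′ end. LAMC3 rose in untreated MiaPaCa2, in a window shared with AIF1L.

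For the α chains of laminin the window decided what was seen. LAMA3, the α3 chain of laminin 332, had 628, 317, 296 and 532 bp in MiaPaCa2 and 479 to 2174 bp in CFPAC1 at its annotated 5′ end (-1.16 ± 0.31 between the untreated lines, adjusted p = 0.0116, lost without either library 1). The promoter table gives a second start, chr18:23873020, inside the gene. In the window around it no MiaPaCa2 library had a peak, against 7792 and 7468 bp in IFN-β-treated CFPAC1, 8462 and 7660 bp in untreated CFPAC1, 5619 and 4706 bp in the IRF1 knockout clones and 7835 and 7552 bp in the WT clones. In a fit at gene starts only, the log2 difference between the untreated lines there was -4.06 ± 0.12 (adjusted p = 5.96e-09). LAMA2, the α2 chain known from muscle, rose at its 3′ end (534 and 706 bp in IFN-β-treated and 1099 and 806 bp in untreated MiaPaCa2, and no peak in CFPAC1), and its start had no peak in any library. It entered the test only through MiaPaCa2, the line where it is high. Peaks within the LAMA2 gene body covered 40428 to 55418 bp in MiaPaCa2 and 9274 to 14256 bp in CFPAC1, a description with no test. LAMA5 did not pass.

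**Figure D3:**
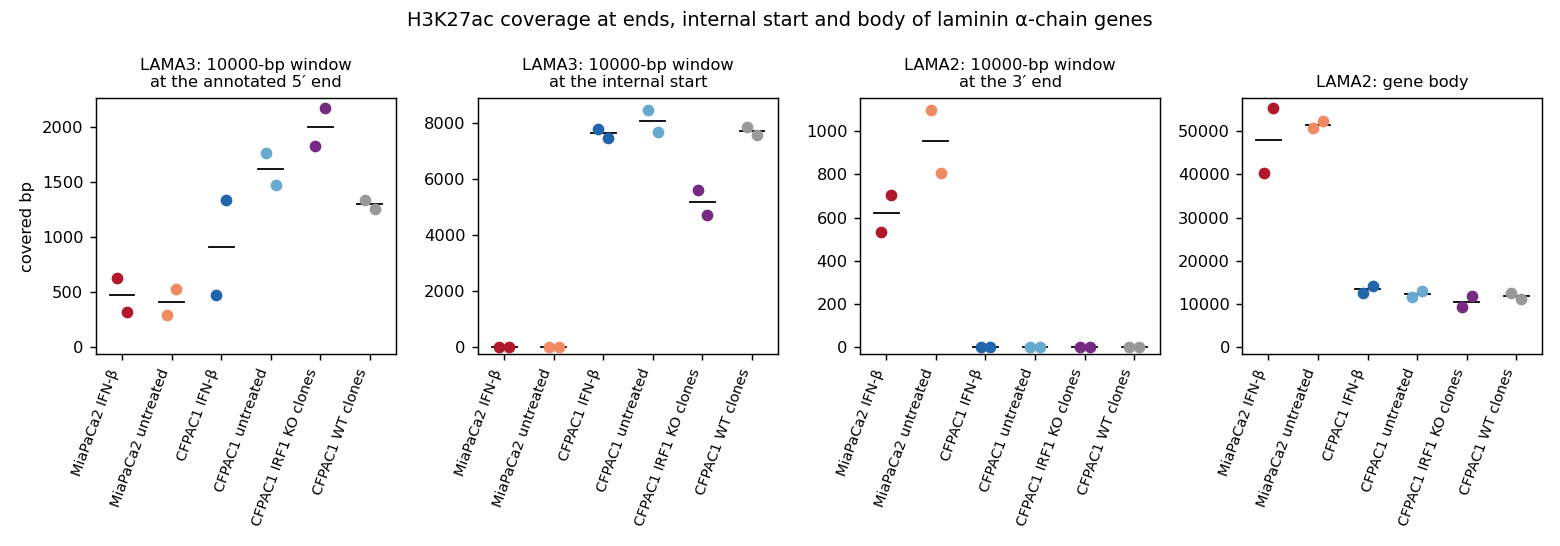
Covered bp (y axes, starting at 0) in each library (points, with a bar at the mean of 2) of the 6 groups for 10000-bp windows at the annotated 5′ end and the internal start of LAMA3, at the 3′ end of LAMA2, and for the whole LAMA2 gene body. MiaPaCa2 libraries have no peak at the internal LAMA3 start, where CFPAC1 libraries have 4706 to 8462 bp, and the most coverage in the LAMA2 body.

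Promoter sequences from RefSeq (GRCh38.p14, 250 bases before to 50 after a start) were at hand for 56 of the 80 members. The 4 printed here belong to members whose windows differed between the lines: LAMA3, in the window at its internal start, and ITGA2 with no peak in MiaPaCa2, COL4A1 lower there and LAMB2 higher. They are written in the direction of transcription, and capitals mark the GC box GGGCGG, the AP-1 motif TGANTCA, the element of IRF factors, 2 copies of GAAA with any 2 bases between them, or the TATA motif TATAAA, on either strand. The bases of LAMA3 (chr18:23872770-23873069, plus strand) and ITGA2 (chr5:52989102-52989401, plus strand) lay under a peak in all 8 CFPAC1 libraries, in part or in full. COL4A1 (chr13:110307108-110307407, minus strand) had no peak on these bases in MiaPaCa2 and peaks in 4 CFPAC1 libraries, although the window around it was covered. LAMB2 (chr3:49133001-49133300, minus strand) was covered in all 12 libraries.
LAMA3: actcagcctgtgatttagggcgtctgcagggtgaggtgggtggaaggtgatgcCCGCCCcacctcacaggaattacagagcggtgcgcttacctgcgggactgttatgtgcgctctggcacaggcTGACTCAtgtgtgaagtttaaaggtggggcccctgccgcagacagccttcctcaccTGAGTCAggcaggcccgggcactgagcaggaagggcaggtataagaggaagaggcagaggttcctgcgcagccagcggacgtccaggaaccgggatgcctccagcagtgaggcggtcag
ITGA2: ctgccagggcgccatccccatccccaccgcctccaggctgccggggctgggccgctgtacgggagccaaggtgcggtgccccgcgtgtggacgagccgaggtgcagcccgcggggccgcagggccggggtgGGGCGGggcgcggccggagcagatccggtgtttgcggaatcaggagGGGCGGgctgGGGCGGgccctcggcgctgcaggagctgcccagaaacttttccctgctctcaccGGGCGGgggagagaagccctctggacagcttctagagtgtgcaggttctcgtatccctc
COL4A1: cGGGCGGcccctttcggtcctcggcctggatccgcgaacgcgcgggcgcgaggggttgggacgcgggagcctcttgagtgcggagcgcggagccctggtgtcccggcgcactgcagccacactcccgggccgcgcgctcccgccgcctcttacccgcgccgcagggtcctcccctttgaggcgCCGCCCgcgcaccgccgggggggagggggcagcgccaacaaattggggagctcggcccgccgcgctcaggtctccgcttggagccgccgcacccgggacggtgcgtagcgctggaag
LAMB2: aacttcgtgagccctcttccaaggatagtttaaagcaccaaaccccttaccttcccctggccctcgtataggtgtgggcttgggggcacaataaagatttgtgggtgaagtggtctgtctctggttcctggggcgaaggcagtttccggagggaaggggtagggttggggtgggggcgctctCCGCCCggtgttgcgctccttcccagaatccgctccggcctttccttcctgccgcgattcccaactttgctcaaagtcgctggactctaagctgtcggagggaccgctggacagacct
The LAMA3 internal promoter holds 2 AP-1 motifs, 125 and 69 bases before the start, and 1 GC box. AP-1 motifs were found in 2 of 56 member promoters, LAMA3 and ITGA5 (3.57%), against 5.76% of 15812 promoters. ITGA2 holds 4 GC boxes, COL4A1 2 and LAMB2 1. GC boxes stood in 31 member promoters (55.4%) against 58.5% of all. TATAAA stood in 6 (10.7%) against 9.64%, and the letters GGAATG of TEAD factors in 5 (8.93%) against 11.7%. Peaks overlapped a smaller share of member promoters than of all promoters: 13 to 17 of 56 in MiaPaCa2 (23.2 to 30.4%, against 53.9 to 56.3% of all promoters) and 19 to 30 of 56 in CFPAC1 (33.9 to 53.6%, against 50.9 to 60.3%). A match is a string of letters, and no binding was measured.

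With 2 h of IFN-β, 1 member passed the test in each line. So low a count can hardly be set apart from the share of all genes. The member was the integrin gene ITGA11. Its α11 chain is a collagen receptor known from fibroblasts. In CFPAC1 1 of 67 members passed (1.49%, against 0.986% of all genes tested, 0.677% higher and 0.309% lower). In MiaPaCa2 1 of 67 passed (1.49%, against 0.651%, with 0.561% higher and 0.0902% lower). ITGA11 had 1829 and 1496 bp in IFN-β-treated CFPAC1 against 366 and 745 bp in untreated CFPAC1, and 838 and 887 bp in IFN-β-treated MiaPaCa2 against no peak in either untreated library. Treated and untreated libraries did not overlap in either line. The log2 difference was 1.20 ± 0.23 in CFPAC1 (adjusted p = 0.0496) and 1.53 ± 0.23 in MiaPaCa2 (adjusted p = 0.0174). The peaks lie at chr15:68298404-68300232 on GRCh38, 1872 to 3700 bp inside the gene from its 3′ end, and the end of FEM1B is 670 bp from that 3′ end. The ITGA11 start had no peak in any IFN-β-treated library. In CFPAC1 the call held in 1 of 16 alternatives, a pseudocount of 2000 bp, and it ended without any 1 of the 4 libraries. In MiaPaCa2 it ended in 8 of 16 alternatives, among them without IFN-β-treated library 1, without library 2, and without untreated library 1.

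The next members by p did not pass. In CFPAC1, ITGA4, the α4 chain of receptors for fibronectin and VCAM-1, had 546 and 1020 bp with IFN-β against 0 and 244 bp without (1.19 ± 0.33, adjusted p = 0.149). ITGB7, its β partner in lymphocytes, had 1217 and 307 bp with IFN-β and no peak without (adjusted p = 0.311). It was the only member with peaks in both treated and neither untreated CFPAC1 library (1.49%, against 0.58% of all genes). The reverse held at COL5A1 alone, with no peak in treated against 212 and 239 bp in untreated CFPAC1 (1.49%, against 1.58%). In MiaPaCa2 peaks in both treated and neither untreated library were listed at ITGA11 alone (1.49%, against 0.406%), and the reverse at no member (0.522% of all genes). In MiaPaCa2, ITGB8 had 4092 and 3790 bp with IFN-β against 2921 and 2259 bp without (0.61 ± 0.12, adjusted p = 0.0642). LAMC3 had 0 and 232 bp with IFN-β against 1047 and 751 bp without (-1.12 ± 0.23, adjusted p = 0.0743). A test of the difference between the responses of the lines passed at 0 of 67 members by limma, against 0.058% of all genes (0.0258% higher and 0.0322% lower). At an unadjusted p under 0.05 it listed 4: LAMC3, ITGB8, ITGA4 and ITGB2, with adjusted p from 0.295 to 0.642.

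The IRF1 knockout clones differed from the WT clones at 5 of 67 members (7.46%, against 1.25% of all genes tested, 0.709% higher and 0.541% lower). COL14A1 and COL25A1 were higher, and COL17A1, ITGB6 and ITGA11 lower. COL14A1 and COL25A1 would not have been tested without their peaks in the knockout clones, so the share is a description only. Without centring 3 were higher and 2 lower, and with quantile normalization 1 and 3. COL17A1, the transmembrane collagen of hemidesmosomes that fastens epithelial cells to laminin 332 (chr10:104031286-104085880), had 1692 and 1657 bp in the knockout clones against 5867 and 5392 bp in the WT clones. Both knockout clones also lay below the 4465 to 6101 bp of the bulk CFPAC1 libraries and the 3453 to 6852 bp of MiaPaCa2. The log2 difference was -1.60 ± 0.20 (adjusted p = 0.0118). Inside the gene, WT clone 1 had a separate peak of 2396 bp (from 104080937 to 104083332) and WT clone 2 one of 1445 bp (from 104080964 to 104082408), where neither knockout clone had a peak. Over the start, knockout clone 1 had a peak of 780 bp, with a further one of 912 bp inside the gene, and knockout clone 2 a peak of 1657 bp, with fold enrichments up to 5.42 and 4.52.

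ITGB6, the β chain of the epithelial receptor αvβ6 (chr2:160099671-160200272), had 2808 and 3079 bp in the knockout clones against 6118 and 6048 bp in the WT clones. The other CFPAC1 libraries held 4799 to 5749 bp. The log2 difference was -1.05 ± 0.12 (adjusted p = 0.0103). Over the start, the WT clones had 1 peak of 2961 bp (from 160197438 to 160200398) and 1 of 3759 bp (from 160196855 to 160200613), with fold enrichments of 20.31 and 17.0. The knockout clones had pairs of shorter peaks near the start. These were 680 and 907 bp wide in clone 1 and 538 and 761 bp wide in clone 2. The 907-bp peak alone reached the start, and the fold enrichments of these pairs were at most 9.68 and 4.27. Further upstream, a peak that ran beyond the window was 8805 bp wide in knockout clone 2, with a fold enrichment of 23.13. In the WT clones the upstream peak was 9186 and 9144 bp wide (37.25 and 25.77). In knockout clone 1 it was 2838 bp wide, with a fold enrichment below those of the other clones. ITGA11 had no peak in the knockout clones against 439 and 682 bp in the WT clones (-1.19 ± 0.23, adjusted p = 0.0462), at the same 3′ position that gained with IFN-β. The call held in 2 of 16 alternatives, and at the gene start the difference was 1.08 (adjusted p = 0.215).

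**Figure D4:**
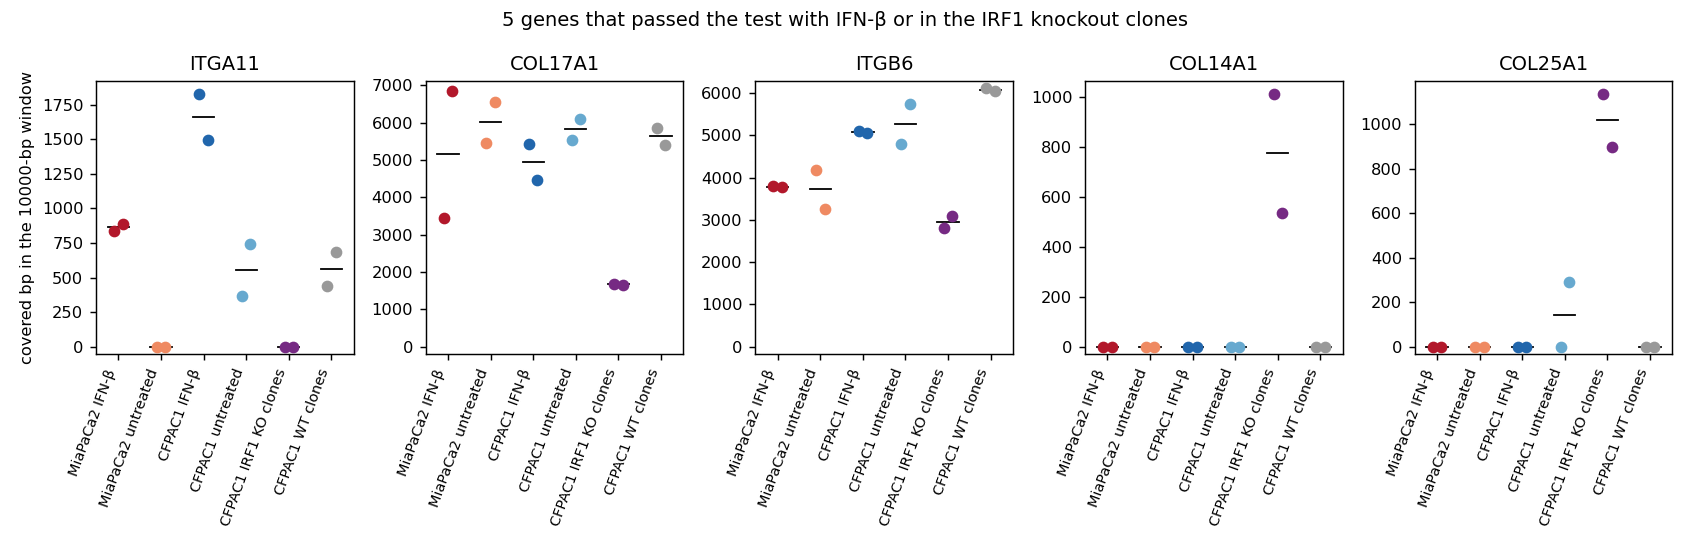
Covered bp (y axes, starting at 0, each with its own range) in each library (points, with a bar at the mean of 2) of the 6 groups for the 5 members that passed with IFN-β or in the IRF1 knockout clones. Both knockout clones lie below every other library at COL17A1 and ITGB6, and COL14A1 has peaks in the knockout clones only.

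The promoters of these members show how they differ in sequence. In COL17A1 (chr10:104085831-104086130, minus strand) the capitals mark 1 match to the IRF element on the opposite strand, 227 bases before the start, and TATAAA, 206 bases before it. ITGB6 (chr2:160200223-160200522, minus strand) holds none of the 5 motifs searched.
COL17A1: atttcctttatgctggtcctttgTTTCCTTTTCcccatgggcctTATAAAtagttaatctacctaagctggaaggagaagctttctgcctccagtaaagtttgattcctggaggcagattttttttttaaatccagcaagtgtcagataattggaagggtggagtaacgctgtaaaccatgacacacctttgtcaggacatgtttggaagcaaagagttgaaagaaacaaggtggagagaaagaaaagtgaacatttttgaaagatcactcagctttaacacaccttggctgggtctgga
ITGB6: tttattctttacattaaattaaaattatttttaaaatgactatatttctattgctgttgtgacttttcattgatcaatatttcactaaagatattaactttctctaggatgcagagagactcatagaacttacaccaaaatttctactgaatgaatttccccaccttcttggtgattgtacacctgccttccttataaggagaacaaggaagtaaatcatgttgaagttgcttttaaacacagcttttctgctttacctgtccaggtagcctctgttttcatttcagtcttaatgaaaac
COL17A1 was the only 1 of 56 member promoters with the IRF letters (1.79%, against 3.17% of 15812 promoters). These 300 bases lay under peaks in all 12 libraries, the knockout clones included, and in full in 11 of them. GC content was 40.7% for COL17A1 and 31.7% for ITGB6, against medians of 65.85% for the member promoters and 62.7% for all. At the internal LAMA3 start, in the fit at gene starts only, the knockout clones were also lower (5619 and 4706 bp, against 7835 and 7552 bp in the WT clones, -0.66 ± 0.12, adjusted p = 0.0302). At the 5′ end of LAMA3 the clones did not pass the test (1828 and 2174 bp, against 1341 and 1259 bp in the WT clones, adjusted p = 0.642). Other members of the same adhesion structures did not pass. ITGB4 had 3912 and 4535 bp in the knockout clones against 5144 and 4737 bp in the WT clones (adjusted p = 0.311). For ITGA6 the values were 3178 and 3073 bp in the knockout and 4041 and 3236 bp in the WT clones (adjusted p = 0.232).

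Small peaks appeared at collagen genes in the knockout clones. COL14A1, a fibril-associated collagen on chromosome 8, had 1014 and 537 bp in the knockout clones and no peak in any other library, so it entered the test through the group where it is high (1.21 ± 0.21, adjusted p = 0.033). COL25A1, a transmembrane collagen found in brain, had 1138 and 897 bp against none in the WT clones (1.49 ± 0.23, adjusted p = 0.0229), and 290 bp in 1 untreated CFPAC1 library. Peaks in both knockout clones and neither WT clone were listed at 8 members (11.9%, against 2.02% of all genes tested). Besides these 2 genes they were COL4A3 and COL4A4, which share 1 window, COL19A1, COL22A1, COL27A1 and ITGAX. All of these but COL22A1 and COL27A1 had a peak in at most 1 library outside the knockout clones and were tested only through them, so nothing is read from this share. Just short of the threshold, COL22A1 had 861 and 412 bp in the knockout clones against no peak in the WT clones (adjusted p = 0.0542). ITGB5, the β chain of the vitronectin receptor αvβ5, had 228 and 486 bp in the knockout clones against 1453 and 881 bp in the WT clones (adjusted p = 0.0519). Peaks in both WT clones and neither knockout clone were listed at 1 member, ITGA11 (1.49%, against 0.297% of all genes). Of all 80 members, 57 and 64 had a peak in the knockout clones against 49 and 46 in the WT clones (71.2 and 80.0%, against 61.3 and 57.5%). For all genes the shares were 72.3 and 73.9% in the knockout clones and 70.8 and 68.6% in the WT clones. Peak number moved with this in 1 clone, at 109861 in knockout clone 2, while clone 1 had 80926, against 90159 and 80618 in the WT clones.

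**Figure D5:**
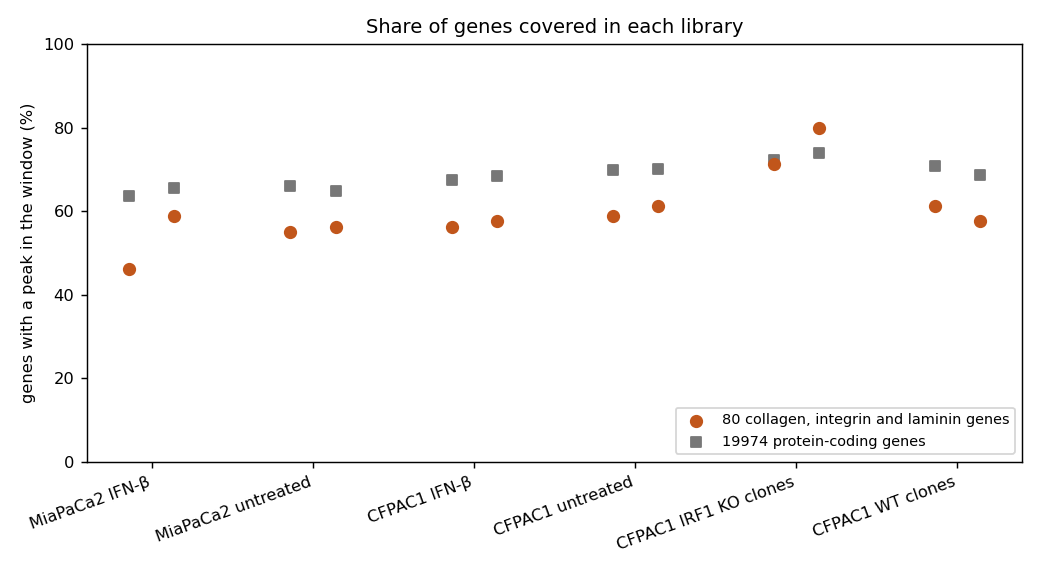
Share of genes with a peak in their window (y axis, 0 to 100%) in each library of the 6 groups, for the 80 collagen, integrin and laminin genes (circles) and all 19974 protein-coding genes (squares). Members lie below all genes in every library but IRF1 knockout clone 2, where 80.0% of them are covered.

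The knockout calls rested on few libraries. The count of 5 became 11 without knockout clone 1, 1 without knockout clone 2 and 0 without WT clone 2, and it was 0 when the model held the 4 clone libraries alone. By gene, ITGB6 passed in 14 of 17 alternatives and COL17A1 in 13, and both lost the call without WT clone 2 and with a 2 kb window, COL17A1 also without knockout clone 2. COL25A1 lost it without knockout clone 2 or without either WT clone, and COL14A1 without either WT clone, with a pseudocount of 2000 bp, with quantile normalization and with the replicate block (adjusted p = 0.0535). Marker values moved too. The 4 fibroblast markers summed to 3911 and 4811 bp covered in the knockout clones against 1366 and 1490 bp in the WT clones. PDGFRA was called higher and DCN was at 0. The 11 epithelial markers summed to 67939 and 56024 bp against 79987 and 74500 bp, with none called. These did not move alike. GRHL2 had 4830 and 299 bp in the knockout clones against 7374 and 6433 bp in the WT clones. ESRP1 had 4356 and 500 bp against 4833 and 4278 bp, and KLF5 2253 and 4314 bp against 8431 and 4612 bp. KRT19 had 9625 and 9821 bp against 9700 and 9553 bp, and CLDN4 7487 and 7333 bp against 7629 and 7315 bp. Chromosome 8 held 4.23 and 3.0% of peaks in the knockout clones and 4.01 and 4.31% in the WT clones. The part of these in the results was not tested.

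Genes that work with the members gave a mixed picture between the untreated lines, where 48.9% of all genes passed, 29.0% higher and 19.9% lower. Of 12 tested matrix partners, 1 was higher and 8 lower in MiaPaCa2. Of 13 collagen-processing genes 6 were higher and 4 lower, of 15 integrin adaptors 5 and 4, of 10 other matrix receptors 3 and 2, and of 7 proteinases 1 and 4. In the IRF1 knockout clones and with IFN-β in CFPAC1 none of them passed by limma, where 1.25 and 0.986% of all genes tested did. With IFN-β in MiaPaCa2, where 0.651% of all genes passed, 1 did. Lists this short can hardly be set apart from such shares. The 1 gene was AGRN, which encodes the basement membrane proteoglycan agrin. It had 5511 and 5542 bp in IFN-β-treated against 3997 and 3729 bp in untreated MiaPaCa2 (0.55 ± 0.08, adjusted p = 0.0146).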

How the data were processed

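H3K27ac ChIP-seq peaks of 12 libraries in 6 groups of 2 were used, with groups from the sample labels. The submitters' processing notes name Trimmomatic 0.38, Bowtie2 2.2.6, SAMtools and MACS2 2.1.0.20150731, and GRCh38 as the build. The authors deposited 1 peak list per library, so replicates were not pooled, with a fold enrichment ratio and −log10 p and q values for each peak, made for each library on its own. The peak caller's score, also deposited by the authors, was not used. The control library, filters and read depth are not given in the sources used here, so no interval that needs counts was computed. Fold values were used only to describe or rank peaks within a list, and the deposited −log10 q values for 1 stricter threshold of 5.

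Peaks on chromosomes 1 to 22 and X were kept, which left out at most 55 in a list. Genes, starts and promoters came from RefSeq tables of GRCh38.p14. Covered bp plus 500 bp was log2-transformed, centred on each library's mean and fitted with limma 3.58.1 (R 4.3.3, trended prior, 1 mean per group, 6 residual degrees of freedom, two-sided) for genes covered in at least 2 libraries. A group at 0 bp adds almost no spread to the shared estimate, and centring gives genes at 0 in both groups small fitted differences. The fit was tested on simulated data, drawn as normal values around the mean of each gene. They held no groups at exactly 0 bp, so that test cannot speak for genes with peaks in a single line. Coverage was computed with Python 3.11.15, numpy 2.4.6 and pandas 2.3.3. Covered length measures how far peaks reach, not their height. Sequencing instruments are named without an assignment to libraries, so batch and group cannot be told apart.

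The members, gene lists and rules were chosen with earlier results of these data known. Named genes were the members called (the 12 largest each way where over 24 were called), the 3 smallest p where fewer than 3 were called, a fixed set of anchor genes, members with peaks in both libraries of 1 group and neither of the other, and the longest covered of each family. Remaining members are named to account for the rest. A result for 1 member is not reported here, although the counts over all members include it.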

Additional observations from a re-analysis of the deposited data

Results flagged for a closer look

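In covered bp before centring, 2 members had both IFN-β-treated libraries above both untreated ones in MiaPaCa2 and below them in CFPAC1. This pattern was not counted over all genes, so nothing is read from the 2. After centring, the fitted differences were positive in both lines, 0.16 in MiaPaCa2 and 0.04 in CFPAC1 for ITGA6, and 0.52 and 0.13 for LAMB1, and none passed. ITGA6 had 1793 and 1710 bp in IFN-β-treated MiaPaCa2 against 1675 and 1581 bp in untreated MiaPaCa2, and 4091 and 4166 bp in IFN-β-treated CFPAC1 against 4225 and 4728 bp in untreated CFPAC1. The difference between the responses was 0.12 ± 0.15 on the log2 scale (limma adjusted p = 0.941). LAMB1 had 862 and 1303 bp in IFN-β-treated MiaPaCa2 against 485 and 855 bp in untreated MiaPaCa2, so that its treated and untreated values barely part, and 7379 and 7267 bp in IFN-β-treated CFPAC1 against 7405 and 7415 bp in untreated CFPAC1. Its difference was 0.39 ± 0.21 (limma adjusted p = 0.781). Neither difference passed the test.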

How the results depend on the processing

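All alternatives were planned. The counts of members called between the lines kept within 1.5 times of the reported ones under all of them, at 34 to 42 in untreated and 28 to 42 in IFN-β-treated cells, and of the called members 27 of 42 and 21 of 38 passed under every alternative that could test them. For IFN-β in CFPAC1 the count of 1 became 0 with a stricter q, a 2 kb window, gene starts only, no centring, no filter, a pseudocount of 100 bp, quantile normalization, equal peak numbers, summits in the window, only the libraries compared, the replicate block, and without any 1 library (0 to 0). For MiaPaCa2 it became 0 with a stricter q, gene starts only and only the libraries compared, 2 with no filter, quantile normalization and summits in the window, and ran from 0 to 5 when 1 library was left out. The knockout count of 5 became 3 with a stricter q, a 2 kb window and the replicate block, 0 with only the libraries compared, and ran from 0 to 11 with 1 library left out. The test between responses gave 1 instead of 0 with summits in the window, and 0 to 1 with 1 library left out, where a lone library is taken to vary like the other groups. Directions turned at gene starts for ITGA11 (-0.16 with IFN-β in CFPAC1, 1.08 in the knockout), ITGA10 (1.11), COL11A2 (-0.03) and ITGAE (0.22 with IFN-β, 0.68 untreated), for COL23A1 with a 2 kb window (-0.04) or with summits in the window (-0.78 with IFN-β, -0.10 untreated), and for ITGB6 with summits in the window (0.07, untreated). For all genes the split of higher and lower calls was 105 and 48 for IFN-β in CFPAC1 but 67 and 75 without centring, with a median over all genes of -0.103 without and 0.042 with centring, 87 and 14 for MiaPaCa2 but 108 and 49 with quantile normalization, and 110 and 84 for the knockout but 150 and 46 without centring and 73 and 87 with quantile normalization. Causes were not tested. Same-numbered libraries of the groups compared correlated at -0.057 to 0.205, so the numbers were not taken as pairs, and the replicate block gave 0, 1, 3, 41, 37 and 0 calls for IFN-β in CFPAC1 and MiaPaCa2, the knockout, the untreated and IFN-β-treated lines and the test between responses. Peak lists hide signal under the peak caller's threshold, and unknown depth limits what a missing peak shows.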

Other observations

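Other genes of matrix and adhesion, picked here after their values were seen, were set apart between the lines as sharply as the members. DDR2, a collagen-binding receptor tyrosine kinase, had 5828 and 7292 bp in IFN-β-treated and 7356 and 6761 bp in untreated MiaPaCa2, and no peak in any of the 8 CFPAC1 libraries. TNC, the matrix protein tenascin C, had no peak in MiaPaCa2 against 4264 and 4565 bp in IFN-β-treated and 5561 and 5519 bp in untreated CFPAC1. THBS1, thrombospondin 1, also had no peak in MiaPaCa2 against 3442 to 6417 bp in CFPAC1. Within gene bodies, COL21A1 had no peak in MiaPaCa2 and 6650 to 13685 bp in CFPAC1, although only IRF1 knockout clone 2 had a peak at the gene end used (374 bp).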
